A study of Glycine max with 4 samples.

Results

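In soybean shoot tips, 395 of 56044 genes (0.705%) had far more reads in an untransformed plant than in any of 3 transgenic plants of the same cultivar. A gene belonged to this set when its normalized count in the untransformed library was at least 200 and at least 16 times the highest of the 3 transgenic libraries plus 1. A normalized count is a read count divided by 1 size factor per library. The genes were thus chosen by the untransformed level and its ratio to the transgenic levels. Their height in the untransformed library is given below as a description, with no test. The 395 genes were 1.63% of the 24231 genes that reached 200 in the untransformed library.

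All 4 plants were Glycine max of cultivar Thorne, grown in a greenhouse for 1 month, and RNA came from 5 cm tips that included immature trifoliate leaves. Tagged 1 and tagged 2 were transgenic plants positive for the mmPing20F insertion on chromosome 8 at position 2785626. The transgenic untagged plant lacked that insertion and contained the transposase expression construct, and the untransformed plant had neither. The design text and the labels write the name of the transgenic untagged plant with 1 digit of difference, and both were taken as the same plant. Whether the tagged plants also carried the transposase construct is not given in the sources used here. Each library is 1 plant, so the untransformed state has no replicate. Differences in transgene content, development, dissection or RNA handling of that single plant cannot be told apart. In bulk tissue, fewer cells of a type and less RNA per cell cannot be told apart either.

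An activation tag is a mobile element that carries sequences meant to raise the expression of genes beside the place where it inserts. The shoot tip holds the apical meristem, the youngest leaves and stem tissue, so its RNA is a mixture of dividing and differentiating cells. The soybean genome descends from whole-genome duplications and also holds tandem arrays, in which copies of a gene lie next to each other on a chromosome. An identifier such as Glyma.01G036800 gives the chromosome before its G, and later numbers lie further along it. The files and the reference table used here pair no identifier with a gene name, so the members are described by level and position, without roles. For the same reason the labelled tissue was not checked against marker genes. Gene lengths were not used, so a count ranks genes by reads and not by transcripts.

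Library totals ran from 27900266 to 49210060 counts, and that of the untransformed library was 34186179. The members took 4.14% of the counts of the untransformed library (exact Clopper-Pearson 95% interval 4.14 to 4.15). They took 0.146% (0.145 to 0.147) in tagged 1, 0.157% (0.155 to 0.158) in tagged 2 and 0.109% (0.108 to 0.110) in the transgenic untagged library. These intervals cover counting error only. The members were thus a visible fraction of the untransformed library and a small one of each transgenic library. The reverse rule, with the lowest transgenic library at 200 or more and at least 16 times the untransformed level plus 1, found 3 genes. Its limit on level must be met by every transgenic library and not by a single library, so the rules are not alike. It was not repeated under other scalings.

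**Figure D1:**
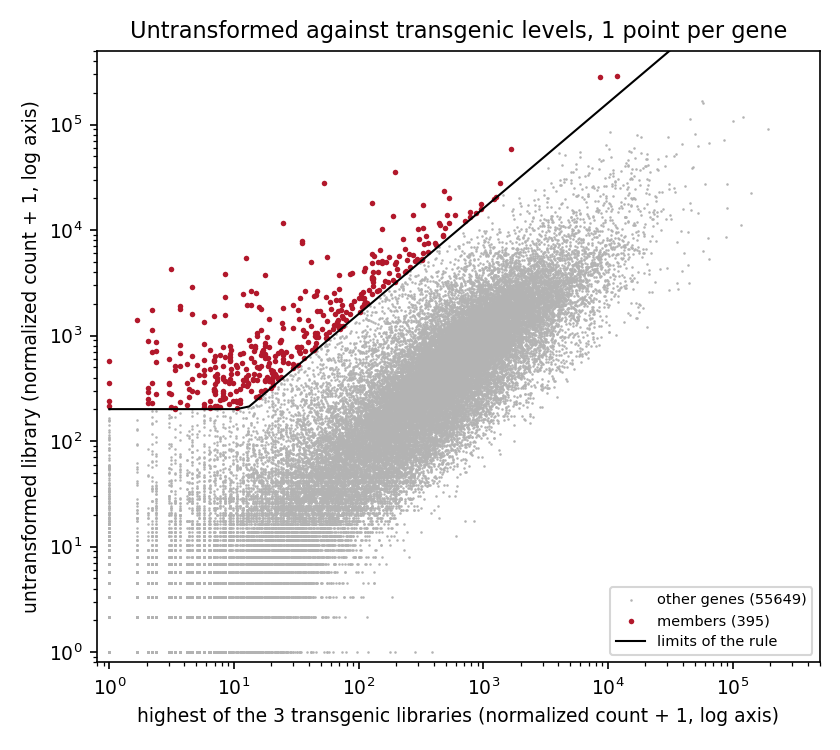
Normalized count + 1 of every gene in the untransformed library against the highest of the 3 transgenic libraries, both on log axes. The 395 members (red) lie above the line of the rule, and 2 of them stand apart at the top with 288962 and 281636 normalized counts in the untransformed library.

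The median member had 860 normalized counts in the untransformed library, with quartiles of 424 and 2663. In the transgenic libraries the medians were 16.9 in tagged 1, 14.3 in tagged 2 and 11.7 in the transgenic untagged plant. Of the 395, 118 had an untransformed level between 200 and 500, and 30 had at least 10000. The ratio used by the rule had a median of 31.8 and quartiles of 21.6 and 60.4. It lay between 16 and 32 in 199 members and was at least 256 in 19. About as many members thus lay within a factor of 2 of the lower limit as above it, with a long upper tail.

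**Figure D2:**
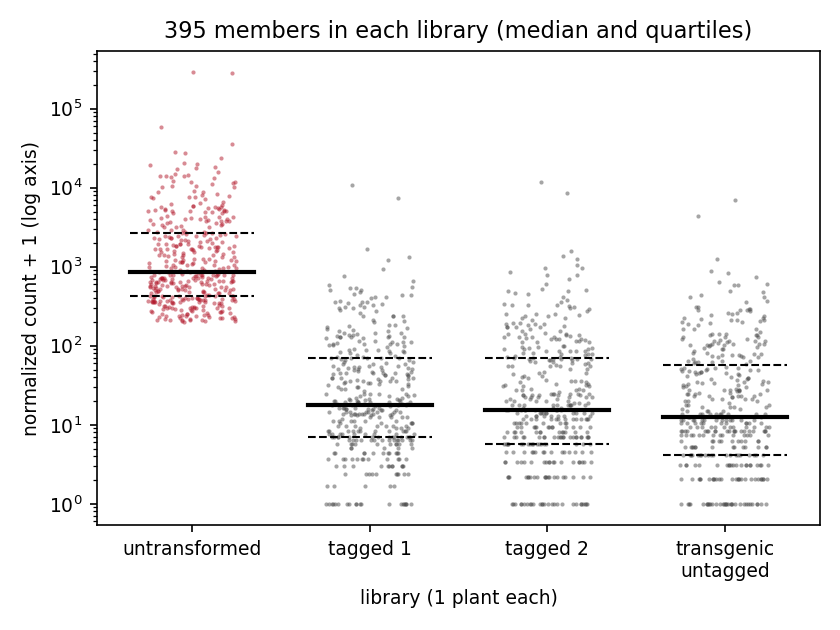
Normalized count + 1 of the 395 members in each of the 4 libraries on a log axis, 1 point per gene, with the median (solid line) and the quartiles (dashed lines). The untransformed median is 860 normalized counts, and the 3 transgenic medians lie between 11.7 and 16.9.

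The reads were concentrated in a few members. Glyma.11G221000 had 288962 normalized counts in the untransformed library, 10904 in tagged 1, 11855 in tagged 2 and 7015 in the transgenic untagged library. Glyma.18G036400 had 281636 in the untransformed library, against 7348, 8695 and 4424 in the same order. These were the first and the second gene of the untransformed library by reads. In the transgenic libraries Glyma.11G221000 ranked 220 to 499 and Glyma.18G036400 ranked 375 to 1067. Together they took 1.42% of the counts of the untransformed library and 34.3% of the reads of all members there. Without them the members still took 2.72% of the untransformed library and between 0.0740% and 0.0949% of the transgenic libraries.

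The next member by reads was Glyma.18G116900, at 59032 in the untransformed library and at 1666, 1601 and 887 in tagged 1, tagged 2 and the transgenic untagged library. Glyma.16G089000 had 35530 in the untransformed library, against 79.6, 193 and 74.3. Glyma.19G223000 had 27963, against 4.72, 50.1 and 52.0. These genes differ widely in what remained in the transgenic libraries, from 1666 normalized counts at Glyma.18G116900 to 4.72 at Glyma.19G223000, both in tagged 1. The others among the 10 highest were Glyma.18G278100, Glyma.03G261800, Glyma.01G161500, Glyma.05G218400 and Glyma.10G019000, with untransformed levels from 27883 down to 19641 and ratios of up to 48.2. Of the 100 most abundant genes of the untransformed library, 6 were members, and none was among the 100 most abundant of any transgenic library. Among the 1000 most abundant, the members numbered 53 in the untransformed library, 2 in tagged 1, 2 in tagged 2 and 1 in the transgenic untagged library.

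The largest ratio belonged to Glyma.06G303200, with 3675 raw counts in the untransformed library and 0, 0 and 2 in tagged 1, tagged 2 and the transgenic untagged library. Its ratio by the rule was 1382. Scaled by the size factors, the ratio over the 3 transgenic libraries pooled was 7043, with a counting interval of 1948 to 58178. The pooled ratio is another measure than the ratio by the rule. Glyma.11G093100 had 1207 raw counts in the untransformed library and 1, 0 and 0 in the others. Glyma.12G100500 had 1477 against 1, 1 and 1. None of these 3 genes had more than 2 reads in any transgenic library. With more reads left to compare, Glyma.17G128000 had 11712 normalized counts in the untransformed library and 4.72, 23.8 and 9.55 in the transgenic ones. Glyma.15G062700 had 2877, against 3.37, 3.58 and 1.06, but these rest on only 5, 3 and 1 reads. Others of the 10 largest ratios were Glyma.02G215700 and Glyma.04G042400, at 516 and 485 by the rule. In the transgenic libraries they had 4, 2 and 0 reads and 4, 1 and 1 reads. Glyma.18G211000, also among the 10 largest ratios, had 953 raw counts in the untransformed library and 0, 1 and 0 in the transgenic ones. Glyma.19G223000, described above, had a ratio of 528 by the rule.

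At 4 members every transgenic library was at 0 counts. Glyma.06G266700, with 568 normalized counts in the untransformed library, was the highest of them. Against a floor of 3 counts in 1 transgenic library (3.58 normalized counts in the library where that floor is highest), it was at least 159-fold higher in the untransformed plant. By the same floor Glyma.15G228600 was at least 98.2-fold higher, from 351 normalized counts. Glyma.17G245100, at 240, was at least 67.0-fold higher. The fourth, Glyma.02G069500, had 214 and was at least 59.8-fold higher. A further 24 members had 1 to 3 reads in the 3 transgenic libraries together. The number of members at 0 was 20 in tagged 1, 27 in tagged 2 and 33 in the transgenic untagged library.

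The limits of the rule cut through a continuous range. Just above the limit on level were Glyma.19G200200, Glyma.16G200800 and Glyma.08G232100, with 201 to 206 normalized counts in the untransformed library. Just below it were Glyma.02G140300, Glyma.08G341400 and Glyma.18G056600, with 198 to 200 when rounded. Just above the limit on the ratio were Glyma.07G229100, Glyma.04G133400 and Glyma.10G019000, all equal to 16 when rounded. Just below it came Glyma.19G027400, Glyma.02G213500 and Glyma.14G012800, at 15.9, 15.9 and 15.8. The genes on both sides of a limit had nearly equal values, so the edge of the set is a convention.

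Members were found on all 20 chromosomes and, for 1 gene, on an unplaced sequence. Chromosomes 2 and 11 held 30 each, and chromosomes 1 and 15 held 29 each. Per 1000 genes the density was highest on chromosome 1, at 11.8, on chromosome 11, at 11.7, and on chromosome 15, at 10.5. It was lowest on chromosome 20, at 3.60, where 9 members were found. Chromosome 8, which carries the tag in the tagged plants, held 20 members, or 5.44 per 1000 genes, with none of them next to another. Set against the genes with an untransformed level of at least 200, members were 2.85% on chromosome 1 and 0.860% on chromosome 20, where the share over all chromosomes was 1.63%. The spread over chromosomes thus differed by about the same factor when only well-read genes were counted. No test was made of these counts.

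**Figure D3:**
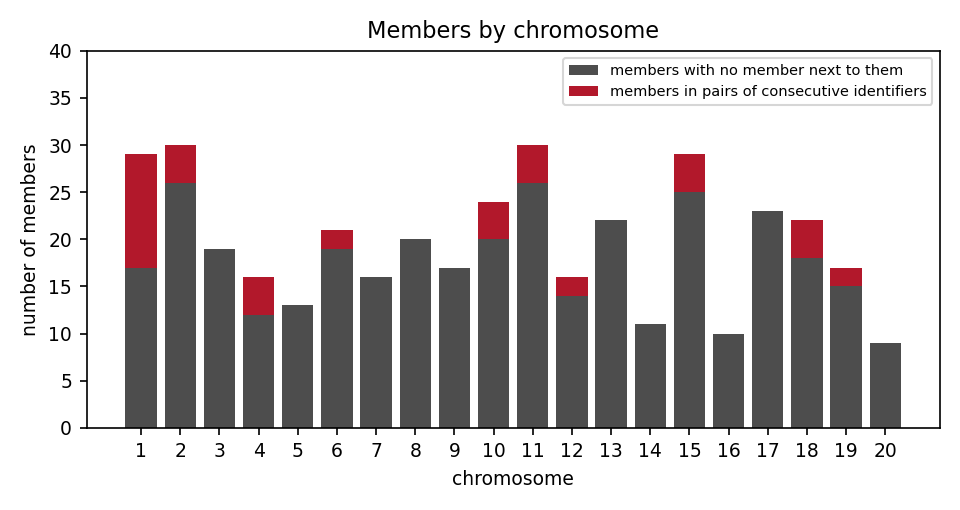
Number of members on each of the 20 numbered chromosomes. The red part of a bar counts members whose next or previous identifier is also a member, and on chromosome 1 it is 12 of 29.

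Along the chromosomes the members were scattered. With the identifiers of each chromosome cut into 10 equal parts, the parts held between 32 and 54 members each, summed over the chromosomes. The second part had the most, 54, and the seventh the fewest, 32. As a share of the genes with an untransformed level of at least 200, the parts ran from 1.27% in the first to 2.23% in the sixth. The order of the parts changed with the denominator.

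Runs of consecutive identifiers were short. The 395 members formed 21 pairs of neighbours and no run of 3, so 42 members (10.6%) had another member directly beside them. Over all genes, 1.40% had a member directly beside them. That share includes 8248 genes at 0 in all libraries. It was not computed over the genes with an untransformed level of at least 200, so 10.6% and 1.40% are not for genes of like level. The pairs lay on 10 chromosomes, and 6 of the 21 were on chromosome 1. With 1 other identifier allowed in between, 25 pairs and again no longer run were found. Because all runs had the same length, the pairs with the highest summed untransformed level are given in full. How reads that fit several near-identical copies were counted is not given in the sources used here, so the split of reads within a pair is uncertain. Overlap of neighbouring genes was not checked.

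The pair with the most reads was Glyma.12G044600 and Glyma.12G044700. Glyma.12G044600 had 383 normalized counts in the untransformed library, and 17.5, 15.5 and 9.55 in tagged 1, tagged 2 and the transgenic untagged library. Glyma.12G044700 had 8807, against 473, 328 and 180. The second gene was 23.0 times the first in the untransformed library by reads, the widest gap of the 21 pairs, and both genes followed the same order of the 4 libraries. In the next pair, Glyma.01G036800 had 614 in the untransformed library, against 13.5, 17.9 and 6.37. Its neighbour Glyma.01G036900 had 6589, against 234, 130 and 209. Here the tagged plants came in opposite orders at the 2 genes.

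Glyma.11G252100 had 774 normalized counts in the untransformed library and 20.9, 29.8 and 30.8 in tagged 1, tagged 2 and the transgenic untagged library. Glyma.11G252200, beside it, had 4730, against 83.6, 194 and 136. Both were lowest in tagged 1. Glyma.01G132000 had 4913, against 123, 153 and 86.0. Its neighbour Glyma.01G132100 had 513, against 12.1, 17.9 and 2.12, so both were lowest in the transgenic untagged plant. The last of these 5 pairs stood out by tagged 2. Glyma.15G055300 had 412 in the untransformed library, against 20.9, 3.58 and 13.8. Glyma.15G055400 had 3992, against 129, 19.1 and 96.6.

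A drop in tagged 2 at both genes was also seen at Glyma.10G137200 and Glyma.10G137300, 1 of the pairs on chromosome 10. This pair was singled out after its values were seen. Glyma.10G137200 had 20.2, 3.58 and 22.3 normalized counts in tagged 1, tagged 2 and the transgenic untagged library, and 874 in the untransformed one. Glyma.10G137300 had 54.6, 3.58 and 34.0, and 1386 in the untransformed library. In both, tagged 2 rests on 3 reads per gene. Such parallel behaviour was not general: tagged 1 and tagged 2 differed in the same direction at both genes in 11 of the 21 pairs. Spearman's rho of this difference between the genes of a pair was 0.27. The transgenic untagged plant departed from the mean of the tagged plants in the same direction at both genes in 14 of 21, downward in 9 and upward in 5 (rho 0.53). Over all members this plant was below tagged 1 at 265 and above it at 122, so unrelated members would also often share a direction. The share for members that are not neighbours was not computed. The rule does not fix these directions, since it treats the 3 transgenic libraries alike.

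**Figure D4:**
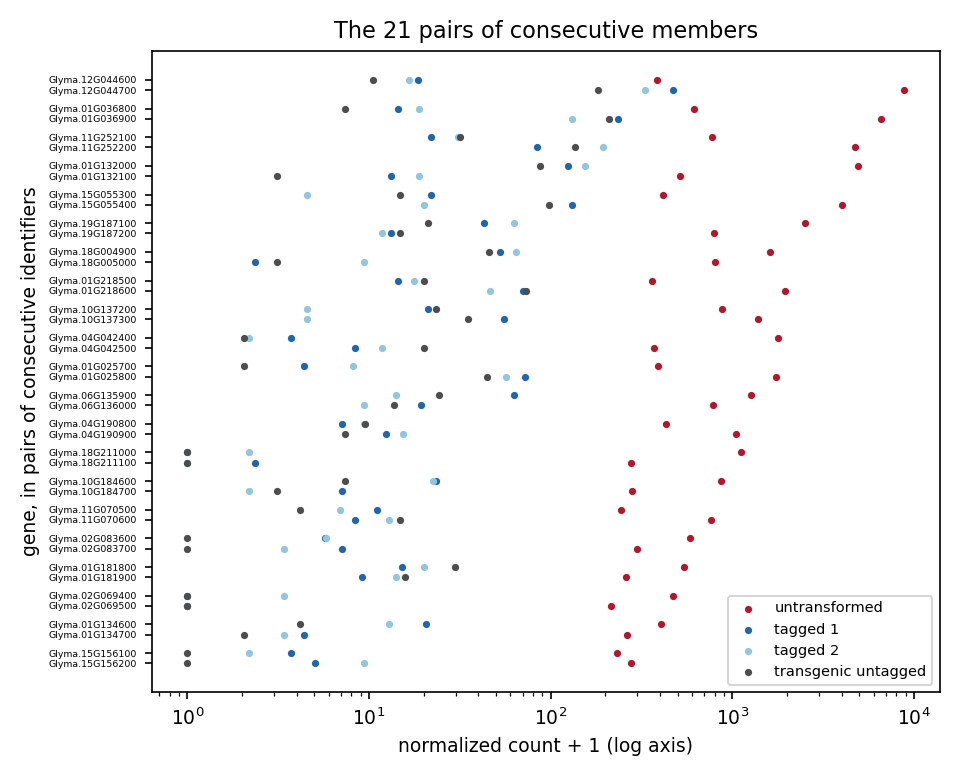
Normalized count + 1 on a log axis of the 42 members that form the 21 pairs of consecutive identifiers, 1 point per library, with the pairs ordered from top to bottom by their summed untransformed level. The untransformed points lie to the right of all transgenic points at each gene, as the rule requires, while the order of the transgenic points changes from pair to pair.

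The genes directly beside members, when not members themselves, were also described, under a filter that the untransformed level could pass alone. There were 744 such neighbours, and 420 had a mean of at least 50 normalized counts over the 4 libraries. Of these, 106 (25.2%) were over 2-fold higher in the untransformed library than the mean of the transgenic libraries, and 73 (17.4%) over 2-fold lower. Among all 32572 non-member genes of that mean the shares were 16.4% and 18.2%. At over 4-fold, 55 neighbours (13.1%) were higher and 18 (4.29%) lower, against 5.91% and 4.68% of all non-members. At over 8-fold the neighbours stood at 19 (4.52%) higher, against 2.02%, and at 3 (0.714%) lower, against 0.654%. Among genes passing this filter, the excess of neighbours over all non-members was on the side of higher levels in the untransformed plant. The mean of at least 50 includes the untransformed library, so a gene could enter by its untransformed level alone. This holds for neighbours and for all non-members, and the shares were not computed with a filter on the transgenic libraries only. How much of the excess comes from the filter was therefore not tested. No test was made, because the contrast is the one that chose the members and has 1 untransformed library.

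Among the 3 transgenic plants, which the rule compares with the untransformed one but not with each other, the members were lower in the untagged plant more often than in the tagged ones. The lowest value was in the transgenic untagged library for 197 of the 395 members (49.9%), in tagged 2 for 97 and in tagged 1 for 77, with ties for the rest. Among the 119 members with a mean of at least 50 over the 3 transgenic libraries, it was the lowest for 62 (52.1%), where over all 32292 genes of that mean it was the lowest for 33.4%. The median difference of log2(normalized count + 1) over all members was -0.42 between the transgenic untagged plant and tagged 1, and -0.28 between it and tagged 2. Between tagged 1 and tagged 2 it was 0.023. For the 119 members with a mean of at least 50 the medians were smaller, at -0.16, -0.25 and -0.040 in the same order. In both sets this median was smallest in size between the tagged plants. Which tagged plant lay further from the untagged plant differed between the sets. Opposite differences cancel in such a median, so it does not show how alike the plants were. Over all members, tagged 1 was above tagged 2 at 204 and below it at 180.

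The 3 transgenic libraries ordered the members alike. Spearman's rho over the 395 members was 0.879 between the tagged plants, 0.889 between the transgenic untagged plant and tagged 1, and 0.895 between it and tagged 2. These are descriptions across genes of the same libraries, and genes are not independent replicates. The spread at single members was nonetheless wide. The highest of the 3 libraries over the lowest, each plus 1, had a median of 2.06 and a 90th percentile of 4.79 over all members. Their median levels were only 11.7 to 16.9 normalized counts in these libraries, where counting error alone widens the ratio. No value for all genes of such low levels was computed. For the 119 members with a mean of at least 50 the median was 1.60, against 1.23 for all genes of that mean. The spread was over 2 at 31 of the 119 (26.1%), against 4.74% of all genes. Levels were not matched between these sets.

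The widest spread was at Glyma.09G080100, with 0, 61 and 25 raw counts in tagged 1, tagged 2 and the transgenic untagged library and 1294 in the untransformed one. Glyma.11G171400 had 5, 76 and 119, and 3061 in the untransformed library. At both genes tagged 1, the deepest library, was the low one. Glyma.02G008200 had 19, 0 and 11, and 673 in the untransformed library. At Glyma.10G137300, described with its neighbour, tagged 2 was low as well. Glyma.16G095000 differed in another way, with 357, 120 and 31.8 normalized counts and 6196 in the untransformed library, so the transgenic untagged plant was low and tagged 1 high. The lowest library therefore changed from gene to gene among these 5.

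The tagged plants (n = 2) were then compared with the transgenic untagged plant (n = 1) by edgeR's quasi-likelihood test over all genes, without the untransformed library. The test takes the spread of the tagged pair for the lone untagged plant too, and tag and plant cannot be told apart in it. Of the 395 members, 268 passed the filter on low counts, which here looks at the transgenic libraries only, and 127 did not. No member passed at an adjusted p of 0.05. The numbers were 0 higher and 0 lower in tagged plants, where 0.00506% of the 39528 tested genes passed in each direction. At an unadjusted p under 0.05, 38 members were higher (14.2%, against 5.9% of tested genes) and 2 lower (0.746%, against 3.57%). The median log2 fold change of the 268 was 0.40 and that of all tested genes 0.0083. Of the 268, 189 (70.5%) had a positive fold change, against 51.1% of all tested genes. Members tested had log2 fold changes from -0.51 at the 10th to 1.51 at the 90th percentile, against -0.39 and 0.60 for all tested genes.

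**Figure D5:**
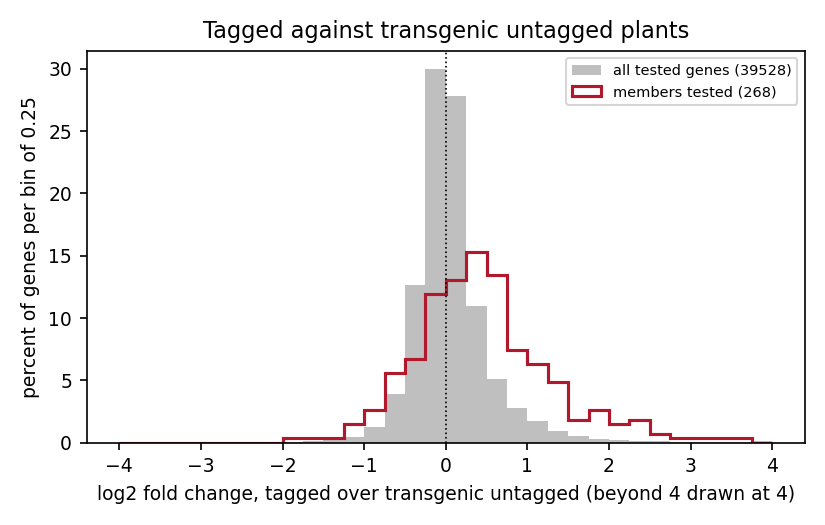
Distribution of the log2 fold change of tagged plants over the transgenic untagged plant, as percent of genes per bin of 0.25, for all 39528 tested genes (grey) and the 268 members tested (red line). The members' distribution is wider and lies to the right, with a median of 0.40 against 0.0083.

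Calls on single members depended on the tool. DESeq2 and edgeR without the filter on low counts took in 391 members, and limma-voom and upper-quartile scaling 268. DESeq2 on the same 3 libraries called 7 members higher in tagged plants and 0 lower, where it called 0.45% of 46901 genes higher and 0.049% lower. Limma-voom called 0 and 0, where it called 0% of genes in each direction, with 28 members higher (10.4%, against 4.86% of tested genes) and 5 lower (1.87%, against 3.58%) at an unadjusted p under 0.05. EdgeR without the filter on low counts called 10 higher and 0 lower, where it called 0.678% and 0.0917% of genes. With upper-quartile scaling edgeR called 1 member higher and 0 lower, where it called 0.0885% and 0.0177% of genes.

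Glyma.14G029100 had the smallest p of the members. It had 408 and 447 normalized counts in tagged 1 and tagged 2, 89.1 in the third transgenic plant and 11126 in the untransformed one. The log2 fold change of tagged over transgenic untagged was 2.27 ± 0.21 (SE), with an edgeR adjusted p of 0.0844 and a DESeq2 adjusted p of 1.1e-06. Both tagged plants were thus above the untagged transgenic plant, while the rule itself places all transgenic plants far below the untransformed plant. The 3 members with the most reads also had higher values in both tagged plants, but this did not hold for all of the 10 highest: Glyma.19G223000 was highest in the transgenic untagged plant among the transgenic libraries, and Glyma.05G218400 had 533 and 290 normalized counts in the tagged plants against 364. Glyma.11G221000 was higher by 0.71 ± 0.18 on the log2 scale, with an edgeR adjusted p of 0.34 and a DESeq2 adjusted p of 0.0458. Glyma.18G036400 was at 0.87 ± 0.19, with an edgeR adjusted p of 0.29 and a DESeq2 adjusted p of 0.0075. At Glyma.18G116900 the change was 0.89 ± 0.15, with an edgeR adjusted p of 0.208 and a DESeq2 adjusted p of 0.0261. Neither these 3 nor Glyma.14G029100 passed in edgeR's test.

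The other 3 members that DESeq2 called were Glyma.10G225400, Glyma.20G130300 and Glyma.05G068000. Glyma.10G225400 had 304 and 323 normalized counts in the tagged plants, 115 in the third transgenic plant and 5268 in the untransformed plant. Glyma.20G130300 had 234 and 212, against 71.1 and 4034. Glyma.05G068000 had 300 and 187, against 67.9 and 10141. In each, both tagged plants lay above the transgenic untagged plant, the direction for which the genes were called. That all transgenic plants lay far below the untransformed plant is set by the rule. In the opposite direction, Glyma.13G091100 had 144 and 138 normalized counts in the tagged plants and 293 in the transgenic untagged plant, a difference of -1.04 ± 0.22 on the log2 scale (edgeR adjusted p = 0.273). It was the member with the smallest p among those lower in tagged plants. These 4 genes and Glyma.14G029100 were named after their values were seen.

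The study's own grouping set both tagged plants against both untagged plants, the transgenic and the untransformed one. It shares the untransformed library with the rule, so nothing about the members is read from it. EdgeR's quasi-likelihood test called 0 members lower in tagged plants, where it called 0% of 38824 genes. At an unadjusted p under 0.05, 15 of the 272 members tested were lower, where 0.206% of all genes were. DESeq2 called 26 genes lower (0.0544% of 47796 genes), and 25 of these 26 were members. DESeq2 called 6 genes higher (0.0126%), and 0 of them were members. With the untransformed plant as the only untagged plant, the contrast is nearly the rule itself. All 395 members then passed the low-count filter, which can pass a gene on the untransformed library that chose them. Their median log2 fold change of tagged over untransformed was -5.41, against 0.024 for all 40640 genes. The rule sets this direction, so no calls are given.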

How the data were processed

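RNA was sequenced from 4 soybean shoot tips, 1 library per plant. The submitters' processing notes name HTSeq 0.6.1, DESeq2, HISAT2 2.1.0 and CASAVA 1.8, with no role. Genome build, annotation and strand setting: not given in the sources used here. The authors deposited raw read counts per gene, and a signal per gene, the counts divided by 1 size factor per library. Multiplied by size factors recomputed by median of ratios (0.839 to 1.48), the deposited signal gave whole reads within 0.01 for 100% of values, equal to the raw counts in 100%, so a count test on the recovered reads made the same calls (0 members in both comparisons).

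The members and lists were chosen with earlier results of these data known. EdgeR 4.0.16 (R 4.3.3) used TMM scaling, its default filter by group and Benjamini-Hochberg adjustment over all genes at 0.05. Standard errors are the change divided by the square root of F. DESeq2 1.42.0 and limma-voom 3.58.1 were alternatives. Consecutive means adjacent in the sorted identifiers of the table. Genes were named as highest by level, ratio or spread, in the leading pairs, at 0 in the transgenic libraries or at the limits of the rule. None of 59048 reference genes carried these identifiers (0 matched), so planned classes by product and marker lists were not run. The correlation of deviations of same-numbered tagged and untagged libraries was -0.052, and the numbers were not treated as pairs.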

Additional observations from a re-analysis of the deposited data

How the results depend on the processing

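The set had 810 members at a ratio of at least 8 and 196 at a ratio of at least 32, with 46 and 6 runs of consecutive identifiers (longest 3 and 2). Under the other limits and scalings it had 277 to 512 members, with 311 when counts were scaled to library totals. Leaving out 1 transgenic library, which can only add members, gave 406 to 458. For tagged against transgenic untagged plants, members called higher numbered 7 with DESeq2, 10 without the low-count filter and 1 with upper-quartile scaling, and 0 under RLE scaling and limma-voom. The median member log2 fold change was 0.33 with limma-voom. With 1 tagged library left out it ran from 0.28 to 0.37, with no test. These last values are plain differences of log2 scaled counts and not edgeR estimates. They therefore do not show what leaving out a library does to edgeR's 0.40. The median stayed positive under all of these settings. For the study's grouping, members called lower numbered 25 with DESeq2, 0 with the replicate block, and 0 to 395 with 1 library left out, the upper end without the transgenic untagged plant. The cause of these changes was not tested. Depth limits the members with few transgenic reads: 127 did not pass the low-count filter among the transgenic plants.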
